A study of Mus musculus with 7 samples.

Results

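The genes described here are 9 genes of the cadherin switch, the exchange of adhesion molecules that accompanies the passage of epithelial cells to a mesenchymal state. They are the epithelial genes Cdh1, Epcam, Cldn6 and Pkp2 and the mesenchymal genes Cdh2, Snai1, Vim, Fn1 and Zeb2. They were found by their NCBI gene numbers (12550, 17075, 54419 and 67451 for the epithelial genes; 12558, 20613, 22352, 14268 and 24136 for the mesenchymal genes) among the 24990 features of each table. After a filter on low counts, 10265 features were tested, and 8 of the 9 genes were among them; Snai1 was not. Levels are given as CPM, the rounded count scaled to a common library size after TMM normalization.

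The libraries were 3′ RNA-seq of embryoid bodies on day 4, the aggregates that mouse embryonic stem cells form when they differentiate. All came from the R1 embryonic stem cell line, which was taken off its feeder fibroblasts on gelatin and differentiated in hanging drops with serum and without Lif. By title, 1 library came from cells in which the promoter of Meteor, a locus that makes a long non-coding RNA, was inverted (pInv), 2 from cells without that promoter (pKO1 and pKO2), 2 of wild type (WT1 and WT2), 1 from a CRISPR knockdown of Meteor (KD) and 1 from an empty-vector control (Ctrl). The labels do not say how many cell clones stand behind a library or whether replicates were separate cultures, so a p-value here covers the spread among the libraries, which may be technical. The genotype field contradicts the titles of 5 libraries: the promoter knockout stands there for WT1 and WT2, the inversion for pKO1, and wild type for pKO2 and pInv. The knockdown is written as CRISPR/Cas9 in the design text and CRISPR/dCas9 in the sample's own field. Groups here follow the titles, and every direction between pInv, pKO and WT depends on that choice.

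During gastrulation, epiblast cells in the primitive streak lose the junctions that E-cadherin holds together and move off as mesoderm. Transcription factors of the Snail and Zeb families repress E-cadherin by binding E-box letters in its promoter, while N-cadherin, vimentin and the matrix protein fibronectin increase. Embryoid bodies pass through a comparable stage as they form streak-like cells.

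The E-box letters CAGGTG, known as a binding sequence of Snail and Zeb proteins and read as CACCTG on the other strand, were searched on both strands in windows from 250 bases before to 50 bases after each annotated start (RefSeq, build GRCm38.p6). Of 32851 such windows of 27025 genes, 20.2% held the letters at least once and 2.88% held them 2 or more times. No window was available for Cdh1, Fn1 and Pkp2, and that of Cdh2 was left out of the reading, so neither cadherin is compared here. Windows were read for 5 of the 9 genes: Epcam, Cldn6, Snai1, Vim and Zeb2. The windows of the first 4 are shown because they let epithelial and mesenchymal promoters be compared; capitals mark CAGGTG or CACCTG, 5′ to 3′ on the gene's strand. They lie at chr17:87635729-87636028 (+) for Epcam, chr17:23679115-23679414 (+) for Cldn6, chr2:167537945-167538244 (+) for Snai1 and chr2:13574061-13574360 (+) for Vim.
Epcam: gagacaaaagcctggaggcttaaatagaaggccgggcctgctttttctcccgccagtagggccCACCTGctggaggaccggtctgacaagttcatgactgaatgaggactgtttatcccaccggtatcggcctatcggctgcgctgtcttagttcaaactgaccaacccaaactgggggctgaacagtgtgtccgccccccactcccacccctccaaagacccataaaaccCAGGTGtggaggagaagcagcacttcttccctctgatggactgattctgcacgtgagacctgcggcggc
Cldn6: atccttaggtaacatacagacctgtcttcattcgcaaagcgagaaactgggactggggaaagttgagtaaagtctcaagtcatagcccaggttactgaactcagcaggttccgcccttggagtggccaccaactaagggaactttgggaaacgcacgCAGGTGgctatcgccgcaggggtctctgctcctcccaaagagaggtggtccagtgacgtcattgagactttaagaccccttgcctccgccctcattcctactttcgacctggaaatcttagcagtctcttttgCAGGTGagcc
Snai1: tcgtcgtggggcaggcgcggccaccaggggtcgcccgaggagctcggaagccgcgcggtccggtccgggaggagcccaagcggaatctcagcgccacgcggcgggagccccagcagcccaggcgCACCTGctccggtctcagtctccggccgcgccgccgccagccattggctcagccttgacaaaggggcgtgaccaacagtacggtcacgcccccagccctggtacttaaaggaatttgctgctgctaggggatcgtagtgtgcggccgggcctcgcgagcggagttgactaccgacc
Vim: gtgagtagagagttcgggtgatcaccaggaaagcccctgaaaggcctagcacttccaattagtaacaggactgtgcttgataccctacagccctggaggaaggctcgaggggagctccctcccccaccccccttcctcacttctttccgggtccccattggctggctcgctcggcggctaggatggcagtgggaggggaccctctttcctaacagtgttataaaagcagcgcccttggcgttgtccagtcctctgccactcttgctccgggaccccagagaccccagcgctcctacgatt
Both epithelial windows held the letters at 2 places: 187 and 19 bases before the start in Epcam, and 93 bases before and 41 bases after it in Cldn6. Snai1 held them at 1 place, 126 bases before the start. Vim held none, nor did any of the 4 windows of Zeb2. The T-box letters AGGTGTGA, read as TCACACCT on the other strand, share AGGTG with the E-box letters. They were in 1.28% of all windows and in no window of the 5 genes read. A match is a description of letters and not a binding site, and its absence says only that these letters are not in this window.

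Library totals ran from 1898350 (WT2) to 2564478 (WT1) expected counts, of which 12.9% to 24.1% fell on the most abundant feature. A count of 3 equals 1.12 to 1.80 CPM. Replicates of both groups differed beyond sampling noise, with a chi-square per degree of freedom of 7.50 for the pKO pair and 23.2 for the WT pair. WT2 stood apart: it was the highest of the 7 libraries for 24.7% and the lowest for 27.6% of the tested features, and the lowest for 4 of the 5 mesenchymal genes (Cdh2, Vim, Fn1 and Zeb2). All 7 markers of pluripotent and epiblast cells and all 7 of the primitive streak had counts in every library. Of the 7 neural markers, Sox1 had no counts in any library, while Nes had 94 (KD) to 160 (pInv). The 7 neural markers summed to 52.5 to 87.4 CPM. Fewer cells of a type and less RNA per cell cannot be told apart in bulk libraries. The Meteor transcript itself was not analysed here, so it does not check the titles.

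Cdh1, which encodes E-cadherin, the adhesion molecule of epithelial and embryonic stem cells, stood out in pInv. It was at 1372 CPM in pInv, 827 and 518 CPM in pKO1 and pKO2, and 594 and 577 CPM in WT1 and WT2. KD had 599 CPM and Ctrl 475 CPM. The counting interval of pInv overlapped that of no other library; pKO1 was next and also apart from those below it. Among all tested features, pInv was the highest library for 13.8% and the lowest for 12.5%. The pKO libraries lay on both sides of the WT libraries, at 672 ± 219 CPM in pKO and 585 ± 12.0 CPM in WT (SD, n = 2 each). With a single pInv library, the SE and p of its comparisons, here and for the genes below, take their spread from the WT and pKO pairs and assume that pInv varies like them. The log2 difference was 1.23 ± 0.37 (SE) for pInv against WT, a 2.34-fold higher level, with an adjusted p of 1 and an unadjusted p of 0.00899 by the quasi-likelihood test of edgeR. It was 1.03 ± 0.37 for pInv against pKO (unadjusted p = 0.0210 in the same edgeR fit, adjusted p = 1). For pKO against WT it was 0.20 ± 0.30 (adjusted p = 1, edgeR). The direction against WT rests on the title of pInv, which the genotype field lists as wild type.

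Cdh1 is the only one of the 9 genes on chromosome 8, and genes of that chromosome were high in pInv together. Over the 251 chromosome 8 genes averaging 20 CPM or more, the median log2 deviation from a gene's median library was 0.42 in pInv and 0.37 in WT2. In the other libraries it lay between −0.12 and 0. On chromosome 11 (422 genes) it was 0.38 in WT2 alone, and on each of the 18 other chromosomes it stayed between −0.088 and 0.074 in every library. The library of highest level was pInv for 43.4% of those 251 chromosome 8 genes and WT2 for 46.2%, though Cdh1 was at 577 CPM in WT2. Of all 4556 genes at that level, pInv was the highest library for 16.6%. A single gene of the 4556, also on chromosome 8, deviated further in pInv than Cdh1. Among the 549 tested chromosome 8 genes the median log2 difference was 0.23 for pInv against WT and 0.38 for pInv against pKO. Centred on those medians, a comparison added after the values were seen, Cdh1 was 2.0-fold higher in pInv than in WT and 1.57-fold higher than in pKO. The number of copies of the chromosome was not tested.

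**Figure D1:**
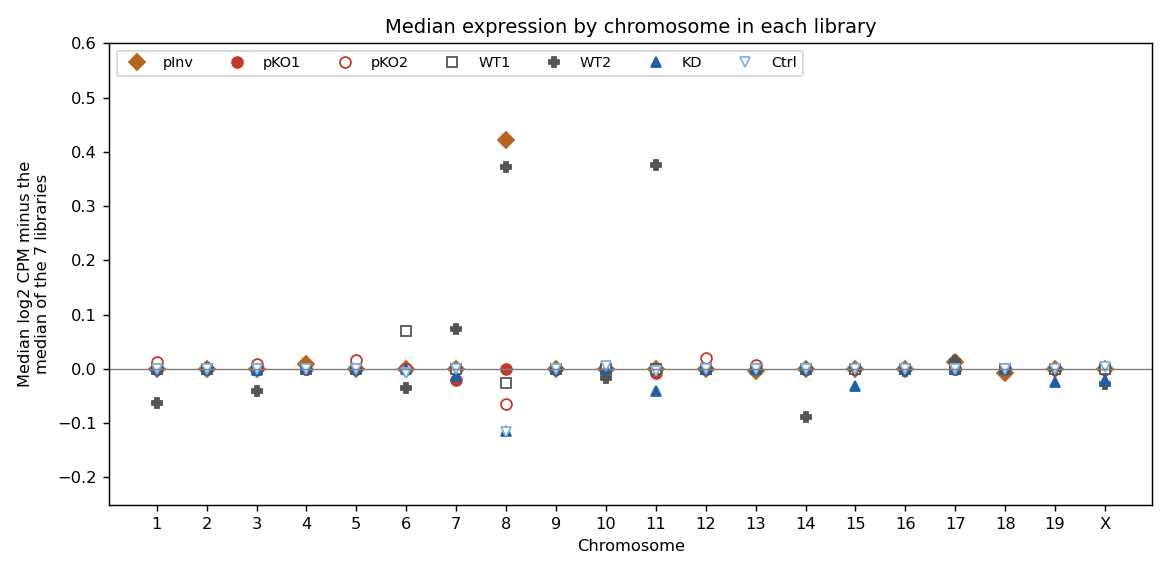
Median log2 deviation of genes from their own median library (vertical axis) for each chromosome (horizontal axis), with a symbol per library, for genes averaging 20 CPM or more. Chromosome 8 lies at 0.42 in pInv and 0.37 in WT2, and chromosome 11 at 0.38 in WT2, while the other chromosomes stay between −0.088 and 0.074.

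Epcam, an adhesion molecule of epithelia and of embryonic stem cells, varied least of the 9 genes, 2.0-fold between its highest and lowest library. It was at 60.3 CPM in pInv, 63.5 and 78.4 CPM in pKO1 and pKO2, and 67.8 and 94.2 CPM in WT1 and WT2. KD was the lowest library at 47.1 CPM, with Ctrl next at 56.9 CPM; KD was the lowest library for 17.0% of the tested features, and for 2 of the 4 epithelial genes (Epcam and Pkp2). The pKO and WT ranges overlapped, at 71.0 ± 10.5 CPM in pKO and 81.0 ± 18.7 CPM in WT (SD, n = 2 each). The log2 difference was −0.18 ± 0.30 for pKO against WT, with a 95% interval from −0.78 to 0.41, and −0.42 ± 0.37 for pInv against WT, from −1.15 to 0.31 (adjusted p = 1 for both, edgeR). The pInv difference was −0.17 without WT2 and −0.64 without WT1. For pInv against pKO it was −0.23 ± 0.37 (adjusted p = 1, edgeR).

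Cldn6, a tight junction claudin of early embryonic epithelium, had low counts. It was at 8.91 CPM in pInv, 14.3 and 5.33 CPM in pKO1 and pKO2, 12.0 and 3.60 CPM in WT1 and WT2, 9.70 CPM in KD and 3.05 CPM in Ctrl. pKO1 and WT1 were both above pKO2 and WT2, so the groups overlapped. Its log2 difference was 0.24 ± 0.69 for pKO against WT and 0.12 ± 0.84 for pInv against WT, and −0.12 ± 0.83 for pInv against pKO (adjusted p = 1 for all, edgeR). The KD to Ctrl ratio was 3.18 from 21 and 6 counts, with an exact 95% counting interval from 1.24 to 9.64.

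Pkp2, a desmosomal plaque protein that links cadherins to intermediate filaments, was the epithelial gene with both pKO libraries below both WT libraries. It was at 23.8 CPM in pInv, 20.1 and 28.3 CPM in pKO1 and pKO2, and 37.5 and 41.4 CPM in WT1 and WT2. Of the 10265 tested features, 12.9% had both pKO libraries below both WT libraries. The means were 24.2 ± 5.83 CPM in pKO and 39.5 ± 2.78 CPM in WT (SD, n = 2 each). The log2 difference was −0.68 ± 0.35 for pKO against WT (unadjusted p = 0.0788 in edgeR's test, adjusted p = 1) and −0.71 ± 0.43 for pInv against WT (adjusted p = 1). For pInv against pKO it was −0.028 ± 0.43 (adjusted p = 1, edgeR). KD was the lowest of the 7 libraries at 12.0 CPM, against 33.5 CPM in Ctrl, or 0.358 times the Ctrl level (counting interval 0.218 to 0.572).

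Cdh2 encodes N-cadherin, the cadherin that streak and mesoderm cells take up as E-cadherin is lost. It was at 50.1 CPM in pInv, 89.3 and 146 CPM in pKO1 and pKO2, and 94.8 and 23.4 CPM in WT1 and WT2. KD had 211 CPM and Ctrl 109 CPM. The WT libraries lay 4.05-fold apart and on both sides of pKO1, so pKO and WT overlapped. The counting intervals of WT1, Ctrl and pKO1 overlapped their neighbours, while those of WT2 and pInv at the low end and of pKO2 and KD at the high end stood clear. The means were 118 ± 40.1 CPM in pKO and 59.1 ± 50.5 CPM in WT (SD, n = 2 each), and the log2 difference was 0.96 ± 0.57 (adjusted p = 1, edgeR). Without WT2 the fitted difference was 0.33, and without WT1 it was 2.29. It was −0.26 ± 0.71 for pInv against WT, which became 1.07 without WT1, and −1.22 ± 0.70 for pInv against pKO (adjusted p = 1 for both, edgeR).

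Fn1 encodes fibronectin, a matrix protein that migrating mesoderm moves on, and varied most, 18.6-fold between KD and WT2. It was at 102 CPM in pInv, 173 and 270 CPM in pKO1 and pKO2, 125 and 31.8 CPM in WT1 and WT2, 592 CPM in KD and 130 CPM in Ctrl. Both pKO libraries were above both WT libraries, as they were for 12.0% of the tested features. The means were 221 ± 68.3 CPM in pKO and 78.3 ± 65.8 CPM in WT (SD, n = 2 each). The log2 difference was 1.47 ± 0.55 for pKO against WT, or 2.77-fold, with an unadjusted p of 0.0303 in edgeR's test and an adjusted p of 1. With no filter on low counts it was 1.5 and passed, at an adjusted p of 0.0105 in edgeR. Without WT2 it was 0.84 and without WT1 2.76. The difference was 0.36 ± 0.68 for pInv against WT, −0.29 without WT2, and −1.11 ± 0.68 for pInv against pKO (adjusted p = 1 for both, edgeR).

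Vim encodes vimentin, the intermediate filament of mesenchymal cells. It was at 15.3 CPM in pInv, 26.3 and 31.2 CPM in pKO1 and pKO2, 21.0 and 12.0 CPM in WT1 and WT2, 64.7 CPM in KD and 22.8 CPM in Ctrl. The libraries stood in the same order as for Fn1 at all 7 ranks, with WT2 lowest, then pInv, WT1, Ctrl, pKO1 and pKO2, and KD highest. Only the KD interval stood clear of its neighbour. The means were 28.7 ± 3.47 CPM in pKO and 16.5 ± 6.35 CPM in WT (SD, n = 2 each). Both pKO libraries lay above both WT libraries, as for 12.0% of the tested features. The log2 difference was 0.75 ± 0.39 for pKO against WT (unadjusted p = 0.0807 in edgeR's test, adjusted p = 1), and 0.46 without WT2. It was −0.13 ± 0.49 for pInv against WT and −0.87 ± 0.48 for pInv against pKO (adjusted p = 1 for both, edgeR).

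The transcription factors were near the detection limit. Snai1, the Snail factor that represses Cdh1 at gastrulation, had 5 counts in pInv, 1 and 2 in pKO1 and pKO2, 5 and 1 in WT1 and WT2, 9 in KD and 1 in Ctrl, or 0.478 to 4.16 CPM. Every library but pInv, WT1 and KD was under the 3-count floor, so no order among them was readable. Zeb2, a zinc-finger repressor of the same promoter, was at 3.82 CPM in pInv, 7.64 and 5.74 CPM in pKO1 and pKO2, 5.25 and 3.60 CPM in WT1 and WT2, 7.85 CPM in KD and 5.08 CPM in Ctrl. Both pKO libraries were above both WT libraries, as for 12.0% of the tested features. All neighbouring counting intervals overlapped, and the log2 difference for pKO against WT was 0.49 ± 0.57 (adjusted p = 1, edgeR). It was −0.20 ± 0.74 for pInv against WT and −0.68 ± 0.72 for pInv against pKO (adjusted p = 1 for both, edgeR). The annotation places the antisense gene Zeb2os and Mir5129 over Zeb2, and without a stated strand setting their reads cannot be told apart.

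**Figure D2:**
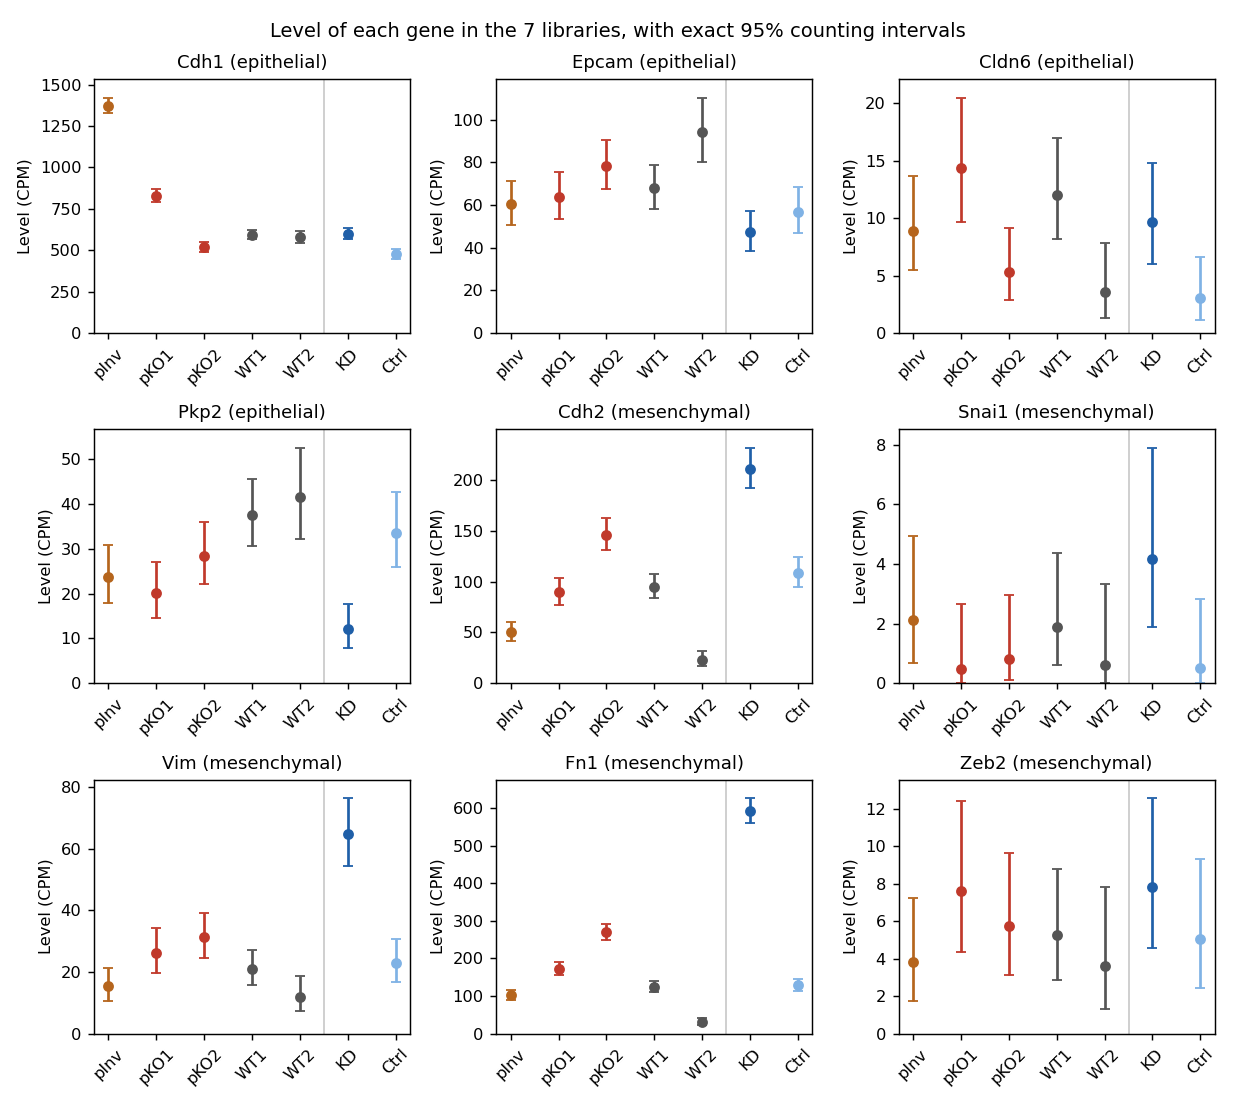
Level of each gene in CPM (vertical axis, from 0) in each of the 7 libraries (horizontal axis), with exact 95% counting intervals as bars, which cover counting error only. Cdh1 is high in pInv at 1372 CPM, and KD is the highest library for Cdh2, Snai1, Vim, Fn1 and Zeb2.

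With edgeR's test at an adjusted p under 0.05, none of the 8 tested genes was called in pKO against WT, pInv against WT or pInv against pKO. Nor was any feature, 0% of 10265 in each comparison. DESeq2 and limma on log2(TPM + 1) also called none. Unadjusted p-values under 0.05 came from 1 of the 8 genes (Fn1) for pKO against WT, where 1.03% of features had one in edgeR, or 106. They came from 1 gene (Cdh1) for pInv against WT, where 1.48% had one, and from 1 gene (Cdh1) for pInv against pKO, where 1.49% had one. Without WT1 such p-values were far more frequent, at 1332 features for pKO against WT and 1271 for pInv against WT. For pKO against WT, Cdh2 and Vim then joined Fn1, at edgeR's adjusted p of 0.157 for Cdh2, 0.276 for Vim and 0.114 for Fn1. The numbers over all features were 18, 40 and 44 in DESeq2 and 153, 208 and 229 in limma for the 3 comparisons in that order.

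As sets, the mesenchymal genes had positive differences for pKO against WT, none past the test, while the epithelial genes were divided. All 4 tested mesenchymal genes had a log2 difference above 0 for pKO against WT, with a median of 0.86. The epithelial genes had 2 above and 2 below 0, with a median of 0.0076, and 49.3% of all features were above 0 at a median of −0.0010. The size depended on the WT library: the mesenchymal median was 0.40 without WT2 and 1.74 without WT1, with all 4 above 0 in both. For pInv against pKO, all 4 mesenchymal genes were below 0, with a median of −0.99, and 1 of 4 epithelial genes was above 0, with a median of −0.072; 49.4% of all features were above 0. For pInv against WT the medians were −0.16 for mesenchymal and −0.15 for epithelial genes, with 1 of 4 and 2 of 4 above 0, against 48.5% of all features. The mesenchymal median was −0.41 without WT2, with 0 of 4 above 0, and 0.69 without WT1, with 4 of 4 above 0. The 3 comparisons share libraries, and none of these counts is a test.

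**Figure D3:**
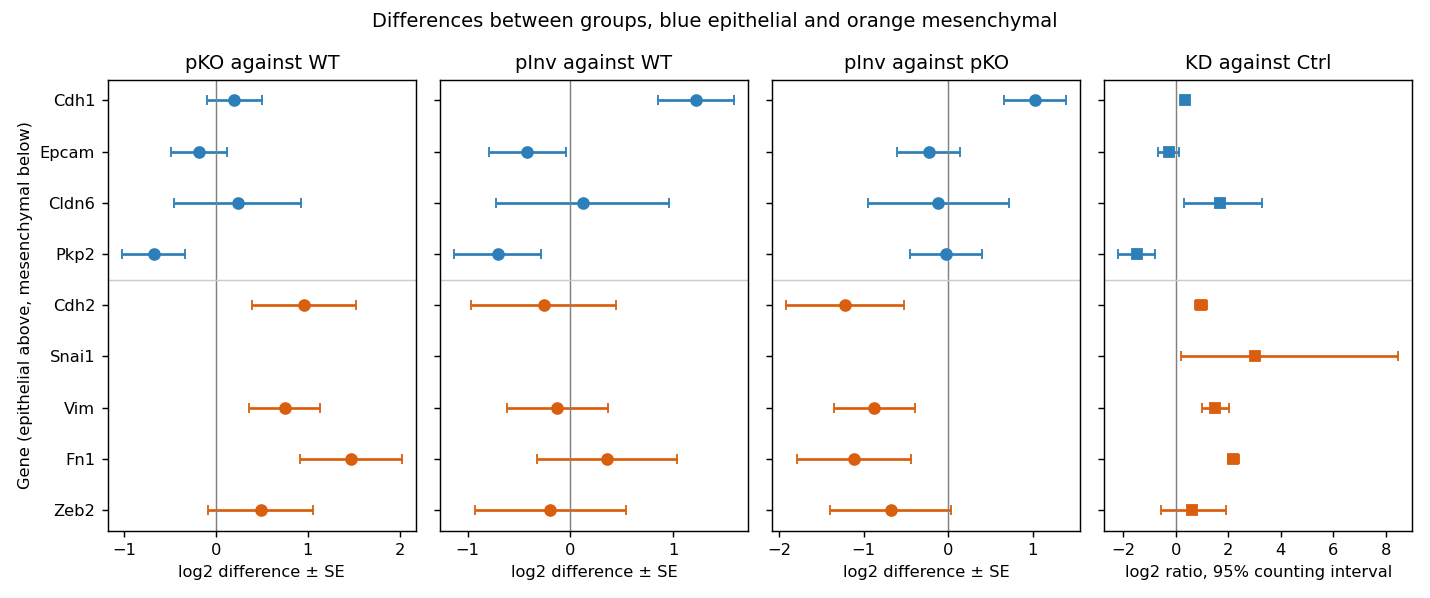
Log2 difference with its standard error (horizontal axis) of each gene in pInv and pKO comparisons, and log2 ratio of KD to Ctrl with an exact 95% counting interval in the rightmost panel; epithelial genes are blue and above, mesenchymal genes orange and below. The mesenchymal genes lie right of 0 for pKO against WT, at 0.49 to 1.47, and left of 0 for pInv against pKO; Snai1 was not tested.

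Per library, the median deviation of the 5 mesenchymal genes minus that of the 4 epithelial genes ordered the libraries from −1.13 in WT2 to 1.67 in KD on the log2 scale. It was −0.34 in pInv, −0.044 and 0.53 in pKO1 and pKO2, −0.24 and −1.13 in WT1 and WT2, 1.67 in KD and 0.24 in Ctrl. Both pKO libraries were above both WT libraries, beside a pooled SD between replicates of 0.53. The ratio of Cdh2 to Cdh1 CPM, meaningful only between libraries, was 0.0365 in pInv, 0.108 and 0.282 in pKO1 and pKO2, 0.160 and 0.0406 in WT1 and WT2, 0.352 in KD and 0.229 in Ctrl. By this ratio pKO and WT overlapped, and pInv and WT2 were both low. In pInv Cdh1 was high and Cdh2 was low, at log2 deviations of 1.21 and −0.91. In WT2 Cdh2 was low, at −1.98.

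**Figure D4:**
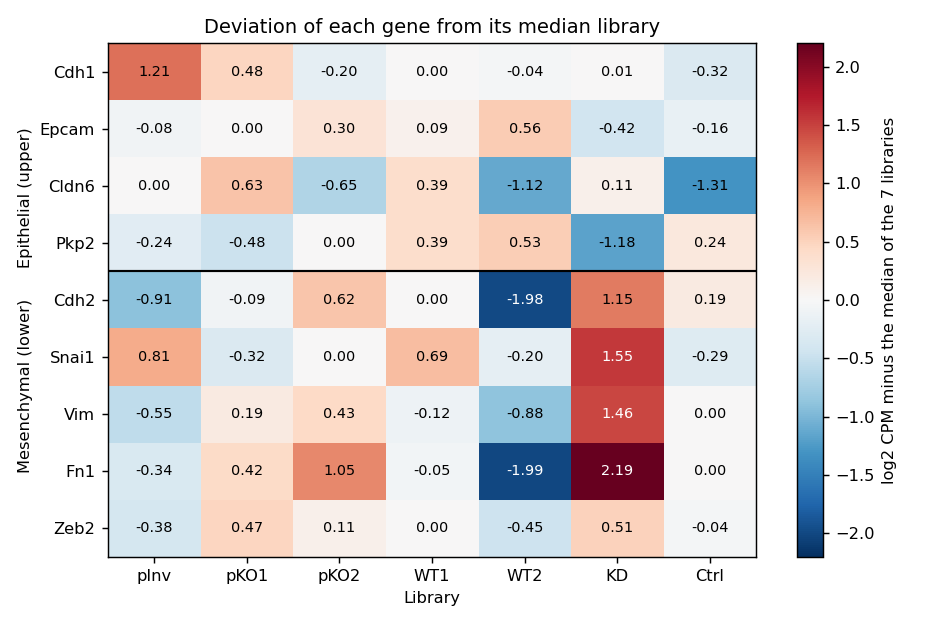
Log2 deviation of each gene (rows, epithelial above the line and mesenchymal below) from its own median library, in each library (columns), with a prior count of 2 added before the log. WT2 is low for Cdh2 at −1.98 and Fn1 at −1.99, KD is high in all 5 mesenchymal rows, and pInv is high for Cdh1 at 1.21.

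The summed level of the 7 primitive streak markers was 1080 CPM in pInv, 1340 and 1950 CPM in pKO1 and pKO2, 1580 and 480 CPM in WT1 and WT2, 2390 CPM in KD and 1510 CPM in Ctrl, so WT2 and pInv were at the low end and pKO2 and KD at the high end, as for Cdh2. The order differed in the middle: pKO1 was below WT1 and Ctrl in the streak sum and above both for Fn1, Vim and Zeb2. Lhx1 alone made 1138 of the 2390 CPM in KD and 884 of the 1950 CPM in pKO2, but 58.2 of the 480 CPM in WT2. Of the 7 markers, only Lhx1 and T had WT2 and pInv lowest and pKO2 and KD highest. Eomes and Gsc were lower in KD, at 399 and 44.8 CPM, than in Ctrl, at 421 and 50.8 CPM. Feeder fibroblast markers, a list of 10, summed to 5.52 CPM in pInv, 9.08 and 7.39 CPM in pKO1 and pKO2, and 8.62 and 7.80 CPM in WT1 and WT2, with 2 to 6 of the 10 at 0. The part of the streak cells in these differences was not tested.

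KD against Ctrl asks what the knockdown does to the switch; each is a single library, so the ratios have no replicates behind them and carry no test. All 5 mesenchymal genes were higher in KD than in Ctrl, and KD was the highest of all 7 libraries for each of them, as it was for 20.1% of tested features. Of the 5083 features at 20 CPM or more in either library, 2368 were higher in KD than in Ctrl. Fn1 was at 592 CPM in KD and 130 CPM in Ctrl, or 4.58 times the Ctrl level (exact 95% counting interval 4.00 to 5.26). Vim was at 64.7 CPM in KD and 22.8 CPM in Ctrl, a ratio of 2.83 from 2.01 to 4.05. Cdh2 was at 211 CPM in KD and 109 CPM in Ctrl, a ratio of 1.94 from 1.65 to 2.30. These 3 lay outside the range of the other 6 libraries, whose highest values were 270, 31.2 and 146 CPM. Zeb2 had a ratio of 1.55 with an interval from 0.669 to 3.78, so no difference was detectable at this depth, and Snai1 had 8.19 from 9 and 1 counts, with an interval from 1.13 to 359.

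The epithelial genes did not move together in KD. Cdh1 was 1.26 times its Ctrl level (1.16 to 1.38), Epcam 0.828 times (0.627 to 1.09) and Pkp2 0.358 times, with Cldn6 at 3.18 times on few counts. The 599 CPM of Cdh1 in KD lay inside the 475 to 1372 CPM of the other libraries, so higher N-cadherin in KD stood beside no lower E-cadherin RNA. Among genes at 20 CPM or more in either library, 2 of 3 mesenchymal genes were 2-fold or more higher in KD (Fn1 and Vim), where 4.03% of 5083 features were. Cdh2 was just under that fold, at a log2 ratio of 0.96, and reached it under the 3 other scalings, at 1.0 or more. Of the epithelial genes at that level, 1 of 3 was 2-fold or more lower (Pkp2), where 1.26% of features were. The mesenchymal minus epithelial median of the log2 ratios was 1.47.

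Several marker lists of other cells were also higher in KD. The 8 macrophage markers summed to 193 CPM in KD, with 5 of 8 above 0, and to 1.02 to 2.97 CPM in the other 6 libraries. Lyz2, a macrophage lysozyme, had 379 counts in KD and 1 in Ctrl, and Csf1r, the macrophage growth factor receptor, 27 in KD and 0 in Ctrl, while the pan-leukocyte gene Ptprc and the complement gene C1qa were at 0 in KD. Feeder fibroblast markers summed to 13.4 CPM in KD, with 5 of 10 at 0, and to 5.58 CPM in Ctrl. Endothelial and blood markers summed to 154 CPM in KD and 46.2 CPM in Ctrl, of which Kdr, also a gene of nascent mesoderm, made 259 of 333 counts in KD and 36 of 91 in Ctrl. The other 7 summed to 34.2 CPM in KD and 27.9 CPM in Ctrl. Neural markers summed to 54.9 CPM in KD and 63.5 CPM in Ctrl, within 52.5 to 87.4 CPM in the libraries other than KD. Pluripotent and epiblast markers summed to 2370 CPM in KD and 3300 CPM in Ctrl. Macrophages and fibroblasts also express Vim and Fn1, and the part of such cells in the KD values was not tested.

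Around the 9 genes, 7 further lists held 119 genes, and none of their tested genes was called in pKO against WT, pInv against WT or pInv against pKO. Of 34 epithelial junction and keratin genes 28 were tested, with 14 above and 14 below 0 for pKO against WT (median log2 difference 0.045), 19 and 9 for pInv against WT (0.25), and 18 and 10 for pInv against pKO (0.14). Cldn4, a claudin, was at 10.2 CPM in pInv, 11.5 and 6.57 CPM in pKO1 and pKO2, and 3.37 and 0 CPM in WT1 and WT2. Its level was 7.11 CPM in Ctrl and 8.77 CPM in KD. Perp, a desmosome component and p53 target, was at 22.9 and 22.2 CPM in pKO1 and pKO2, against 15.0 and 6.60 CPM in WT1 and WT2. Its level was 17.8 CPM in Ctrl and 15.2 CPM in KD. Llgl2, a polarity gene, was at 29.3 CPM in pInv, 11.9 and 18.5 CPM in pKO1 and pKO2, and 20.6 and 10.8 CPM in WT1 and WT2. In KD none of 11 such genes at 20 CPM or more was 2-fold apart from Ctrl; Krt8, a keratin of simple epithelia, was at 57.7 CPM in KD and 42.6 CPM in Ctrl.

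The regulators of the epithelial state, 7 of 11 tested, had 5 above and 2 below 0 for pKO against WT (median 0.34) and 1 above and 6 below for pInv against pKO (median −0.65). Klf5, a Krüppel-like factor of early embryonic epithelium, was at 33.4 and 30.8 CPM in pKO1 and pKO2, against 29.2 and 10.8 CPM in WT1 and WT2. Its level was 32.0 CPM in Ctrl and 22.6 CPM in KD. Esrp1, a splicing factor of epithelial cells, was at 56.8 CPM in KD and 73.6 CPM in Ctrl. Of the cadherin-catenin partners, 7 of 8 tested, 5 were above and 2 below 0 for pKO against WT (median 0.20). In KD 5 of 6 at 20 CPM or more were below Ctrl, where 2715 of 5083 features at that level were. Ctnnd1, the p120 catenin that keeps cadherins at the membrane, was at 10.2 CPM in KD and 20.8 CPM in Ctrl, a ratio of 0.488 with an interval from 0.277 to 0.839. Ctnnb1, or beta-catenin, was at 303 CPM in KD and 207 CPM in Ctrl.

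The other transition factors were mostly low, with 7 of 12 tested: 4 above and 3 below 0 for pKO against WT (median 0.22), and 1 above and 6 below for pInv against pKO (median −0.39). Snai2 had 1 count in all libraries together, and Zeb1 had 1 to 8 counts a library. Twist1, a helix-loop-helix factor of mesenchyme, was at 5.26 and 8.62 CPM in pKO1 and pKO2, against 4.12 and 1.80 CPM in WT1 and WT2, and at 16.6 CPM in KD and 12.7 CPM in Ctrl. Tcf12, an E-protein partner of such factors, was at 41.6 and 36.5 CPM in pKO1 and pKO2, against 30.7 and 19.2 CPM in WT1 and WT2. Its level was 37.6 CPM in Ctrl and 46.6 CPM in KD.

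Of 30 further mesenchymal and matrix genes 19 were tested, with 15 above and 4 below 0 for pKO against WT (median 0.34), 10 and 9 for pInv against WT (0.0059), and 5 and 14 for pInv against pKO (−0.21). Ahnak, a large scaffold protein beneath the membrane, was at 12.7 CPM in pInv and 15.3 and 11.1 CPM in pKO1 and pKO2, against 3.75 and 3.60 CPM in WT1 and WT2. In Ctrl and KD, Ahnak was at 17.3 and 16.6 CPM, so only the WT libraries were low. Its log2 difference for pKO against WT was 1.61 ± 0.47, with an unadjusted p of 0.00418 in edgeR's test and an adjusted p of 1. In KD, 3 of the 8 genes at 20 CPM or more were above Ctrl and 5 below, and none was 2-fold apart. Of all 5083 features at that level, 2368 were above and 2715 below, and 269 were 2-fold or more apart. The list's other genes were under 20 CPM in both KD and Ctrl and are not in these counts. Ncam1, a neural cell adhesion molecule under that level, was at 18.0 CPM in KD and 5.58 CPM in Ctrl, a ratio of 3.23 from 1.62 to 6.98. Sparc, a secreted matrix protein, was at 145 CPM in KD and 195 CPM in Ctrl, and Tpm2, a tropomyosin, at 19.9 CPM in KD and 34.0 CPM in Ctrl.

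Fibronectin receptors, 5 of 8 tested, had 3 above and 2 below 0 for pKO against WT and 4 above and 1 below for pInv against pKO. Itgb1, the beta chain of the main fibronectin receptor, was at 158 CPM in pInv, 110 and 103 CPM in pKO1 and pKO2, and 93.3 and 141 CPM in WT1 and WT2, and at 119 CPM in KD and 107 CPM in Ctrl. The gastrulation signals that induce the transition, 14 of 16 tested, had 10 above and 4 below 0 for pKO against WT (median 0.093). In KD 2 of 11 at 20 CPM or more were 2-fold or more higher, where 4.03% of all features were. Mesp1, a factor of nascent mesoderm, was at 243 CPM in KD and 71.6 CPM in Ctrl, a ratio of 3.40 with an interval from 2.82 to 4.12. Tgfbr1, a receptor for TGF-beta ligands, was at 21.2 CPM in KD and 7.11 CPM in Ctrl, a ratio of 2.99 from 1.61 to 5.89. Nodal, the ligand that drives streak formation, was at 42.5 CPM in KD and 81.2 CPM in Ctrl, a ratio of 0.523 from 0.400 to 0.680.

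The genes with the most similar levels across the 7 libraries differed between the cadherins. Likeness was the root mean square difference of log2 CPM, centred on each gene's own mean, among 4556 genes averaging 20 CPM or more. For Cdh1 the nearest was Retreg2 on chromosome 1 at 0.164, followed by Cyb5b, Ash2l, Naf1 and Wwc2 at 0.175 to 0.219, all on chromosome 8; the median over all genes was 0.547. For Cdh2 they were Ifitm1, Cyp26a1, Epha4, Flt1 and Pcdh7, at 0.200 to 0.236, beside a median of 0.991. For Fn1 they were Kdr, Epha4, Ifitm1, Mesp1 and Cdh2, at 0.340 to 0.404, beside a median of 1.23. Kdr was at 120 CPM in KD and 18.3 CPM in Ctrl and at 39.8 CPM in pKO2 and 6.60 CPM in WT2; Fn1 was likewise highest in KD and lowest in WT2.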

How the data were processed

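Polyadenylated RNA was read from its 3′ end (Lexogen QuantSeq, per the labels' protocols). For each library the authors deposited RSEM gene estimates, which per the file headers are expected counts, TPM and FPKM. The build was mm9, per the submitters' processing notes. Not given in the sources used here are RSEM's version, the strand setting and any duplicate removal. Expected counts were deposited without normalization and rounded here. The authors' TPM served in 1 alternative, and the deposited FPKM values were not tested. Names and chromosomes came from a RefSeq table of GRCm38, a later build, so gene coordinates of the files are not given.

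Counts were filtered by group (filterByExpr), scaled by TMM and fitted in edgeR 4.0.16 under R 4.3.3, with all 7 libraries in 1 quasi-likelihood model. The spread was estimated with 2 residual degrees of freedom and a prior of 5.86, and edgeR's common coefficient of variation came to 0.294. The prior count was 2, and p-values were adjusted over all 10265 features (Benjamini-Hochberg). DESeq2 1.42.0 and limma 3.58.1 on log2(TPM + 1) were alternatives. For KD against Ctrl, genes at 20 CPM or more in either were compared at a 2-fold ratio. Intervals of levels and of KD to Ctrl ratios are exact (Clopper-Pearson for ratios, Poisson for levels) at 95%. They cover counting error only, since no molecular identifiers are named. The 95% intervals of the Epcam log2 differences instead come from edgeR's SE by a normal approximation, which is narrow at so few degrees of freedom. Other alternatives were size factors, no filter, the compared groups alone, other scalings, the genotype field, a replicate block and leaving out each replicate. The steps were tested on simulated data.

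All 9 genes are named, with each comparison in which they were tested. From each further list, the smallest 2 p-values, or the 4 largest ratios for KD, made a gene eligible to be named, and for Cdh1, Cdh2 and Fn1 the 5 genes of most similar levels were named, with list genes outside it (Snai2, Zeb1) chosen after their values were seen, as were the marker genes and the chromosome comparison. The genes and lists were chosen with earlier results of these data known.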

Additional observations from a re-analysis of the deposited data

How the results depend on the processing

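Of 318 values of single genes under the alternatives, 288 kept their direction and side of the threshold, 29 reversed and 1 became significant (Fn1, 1.5 for pKO against WT with no filter). Grouping by the genotype field reversed most: for pKO against WT, Cdh1 −0.69, Epcam 0.22, Pkp2 0.58, Cdh2 −0.70, Vim −0.45, Fn1 −1.22 and Zeb2 −0.074, with the mesenchymal minus epithelial median at −0.77. For pInv against WT it gave Cdh1 −0.19, Vim 0.17, Fn1 −0.10 and Zeb2 0.59, the median 0.19 and 7 called genes, and for pInv against pKO Cldn6 0.76, Cdh2 0.57, Vim 0.62, Fn1 1.12 and Zeb2 0.66, the median 0.56. With no filter 9, 6 and 8 genes were called for pKO against WT, pInv against WT and pInv against pKO. With limma, Cdh2 was 0.067 and the median 0.028 for pInv against WT.

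Leaving out 1 replicate, the called genes ranged from 0 to 7 for pKO against WT and for pInv against pKO, and stayed at 0 for pInv against WT. The 7 came without pKO2 in both. Features at an unadjusted p under 0.05 in edgeR numbered 106 with all libraries and 1332 without WT1 for pKO against WT, and 152 and 1271 for pInv against WT. The median ranged from 0.49 to 1.83 for pKO against WT, from −0.13 to 0.46 for pInv against WT and from −1.40 to −0.87 for pInv against pKO. For pKO against WT, Cdh1 ranged from −0.17 to 0.50, Epcam from −0.40 to 0.086 and Cldn6 from −0.51 to 1.23. For pInv against WT, Epcam ranged from −0.64 to −0.17, Cldn6 from −0.40 to 1.11, Cdh2 from −0.91 to 1.07, Vim from −0.44 to 0.32, Fn1 from −0.29 to 1.65 and Zeb2 from −0.39 to 0.066. For pInv against pKO, Cldn6 ranged from −0.64 to 0.63 and Pkp2 from −0.27 to 0.23. A remaining lone library was assumed to vary like the others.

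The labels do not say that libraries of the same number belong together; over 10265 genes, the differences between numbers within WT and within pKO correlated at 0.308. With a replicate block 0 genes were called in all 3 comparisons (296, 579 and 468 at an unadjusted p under 0.05 in edgeR), and Cldn6 was 0.017 for pInv against pKO. The count of genes 2-fold apart between KD and Ctrl was 269, against 405 with totals that leave out the most abundant feature and 1330 at a minimum of 5 CPM. Scaling by plain totals moved the median log2 ratio of all genes by 0.12; the 27 KD values of single genes kept their direction under the 3 scalings tried. The causes of these reversals and moves were not tested. Depth limits Snai1, Zeb2 and Cldn6.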

Other observations

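Other genes near those described here stood apart in KD; they were chosen after their values were seen. Foxc1, a forkhead factor of mesoderm, had 35 counts in KD and 0 in Ctrl, at least 10.6-fold higher against a floor of 3 counts in the Ctrl library, and 0 to 10 counts in the 6 libraries other than KD. Crb2, a polarity gene needed for cells to leave the streak in mouse, had 18 counts in KD and 2 in Ctrl, and 2 to 3 in those 6 libraries. Crb3, a polarity gene of epithelia, had 22 counts in KD and 6 in Ctrl, or 3.34 times the Ctrl level (exact 95% counting interval 1.31 to 10.1). Tjp3, a tight junction scaffold, had 13 counts in KD and 1 in Ctrl, or 11.8 times (1.78 to 503). Cgn, another junction gene, went the other way, with 10 counts in KD, 36 in Ctrl and 31 to 51 in the libraries other than KD. None of these values has a replicate check.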
